A study of Mus musculus with 12 samples.

Results

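The E2F and DP transcription factors were followed across 4 genotypes of MEFs, the fibroblasts cultured from mouse embryos. They were the 10 genes E2f1 to E2f8, Tfdp1 and Tfdp2, chosen by name, and all 10 were on the arrays, out of 18193 genes that a probe set with a single symbol names. These genes have 21 probe sets among the 45037 that were not controls, and the probe set of highest mean over the 12 arrays stood for its gene. RNA was measured on Affymetrix MOE430 2.0 arrays in 4 groups of 3: TKO-Ras MEFs, which lack Rb1, p107 (Rbl1) and p130 (Rbl2) and carry a Ras gene labelled G12D, TKO MEFs with those 3 deletions, MEFs labelled Rb1KO with a deletion of Rb1, and wild type (WT) MEFs. All cells were untreated and were collected while growing exponentially. The labels do not say which Ras gene was mutated or how it was brought into the cells. The study's methods describe the WT and TKO arrays alone, and the TKO cells came from another laboratory. Their replicates are called biological, with no separate embryos or cultures named, so errors and p-values cover the spread between these RNA samples.

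E2F proteins bind DNA as dimers with a DP protein, and the pocket proteins pRb, p107 and p130 bind E2Fs and hold back the genes needed for S phase. E2F1, E2F2 and E2F3 are counted as activators and E2F4 and E2F5 as repressors that work with p107 and p130. E2F6 represses without pocket proteins, as part of a Polycomb complex. E2F7 and E2F8, the atypical members, bind DNA without a DP partner, repress E2F target genes and are themselves E2F targets. Tfdp1 and Tfdp2 encode the DP partners.

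The values are log2 numbers made by the authors with RMA, which corrects background, makes the distributions of the arrays alike and summarises the probes of a probe set. The difference of 2 group means is a log2 fold change, in which 1 is a doubling, and values of different genes are not compared as levels because each probe set has its own brightness. Background was set at 5.13, below which 95% of the values of 44 probe sets for olfactory receptors lie, and the probe sets from which the 10 genes were read were above it on every array. All groups were fitted together with limma, and calls rest on an adjusted p below 0.05, with the adjustment over the 45037 probe sets.

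Rbl1 was at background on every TKO-Ras and TKO array and averaged 8.74 in Rb1KO and 8.24 in WT MEFs. Rb1 averaged 7.56 in TKO-Ras, 7.14 in TKO and 7.58 in Rb1KO MEFs, against 8.50 in WT MEFs. Rbl2 averaged 5.03 in TKO-Ras, 5.45 in TKO and 4.18 in Rb1KO MEFs, against 7.72 in WT MEFs. It was at background on every array labelled Rb1KO but above it on 3 of 3 TKO and 2 of 3 TKO-Ras arrays, and higher in TKO than in Rb1KO MEFs by 1.27 (limma adjusted p = 0.0041), although the labels give its deletion for TKO and not for Rb1KO. WT replicate 3 correlated least with its own group, at a mean r of 0.974 across probe sets, against 0.982 to 0.994 for the other arrays. Of 8 fibroblast markers, 7 were above background on every TKO-Ras and TKO array and 8 on every Rb1KO and WT array, with Thy1 at background in TKO-Ras and TKO MEFs. The summed linear level of the 8, as log2, ranged from 15.90 to 15.97 in TKO-Ras, 16.21 to 16.28 in TKO, 15.93 to 16.02 in Rb1KO and 16.37 to 16.63 in WT MEFs. For 6 neural markers it ranged from 10.20 to 11.00 in TKO-Ras, 9.81 to 10.20 in TKO, 9.60 to 9.87 in Rb1KO and 11.02 to 11.13 in WT MEFs. The neural sum hides opposite changes. In TKO over WT, Sox2 was at 4.82, Map2 at -6.75 and Fabp7 at -1.60, while 3 did not pass. For 6 macrophage markers the sum ranged from 8.85 to 9.12 in TKO-Ras, 8.55 to 8.72 in TKO, 8.17 to 8.28 in Rb1KO and 7.73 to 8.12 in WT MEFs. This sum followed Cd14, at 8.37 in TKO-Ras, 7.80 in TKO, 7.04 in Rb1KO and 6.55 in WT MEFs. Ptprc, Adgre1 and Aif1 were at background on every array. Csf1r had another order, at 6.36 in TKO-Ras, 6.21 in TKO, 6.57 in Rb1KO and 6.49 in WT MEFs. The epithelial sum (5 markers) lay between 10.39 and 11.05 in TKO-Ras and between 8.20 and 9.47 in the other groups, and the endothelial sum (5 markers) between 7.98 and 8.58 in all groups. The epithelial sum followed Krt19, at 10.48 in TKO-Ras, 8.40 in TKO, 7.92 in Rb1KO and 7.38 in WT MEFs. Cdh1 and Krt18 were at background on every array. In TKO-Ras over TKO, 0 of the 5 epithelial markers were called higher and 1 lower, beside 2.54% and 3.13% of probe sets. The part of these markers in the results was not tested, and fewer cells of a kind cannot be told apart from less RNA per cell.

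Start regions are shown first, since several E2F genes are known as targets of E2F. RefSeq windows of 300 bases (build GRCm38.p6), from 250 bases before to 50 after a transcript's start, matched 8 of the 10 genes, with 12 windows. They were searched on both strands for the 8 octamers TTTCCCGC, TTTCCCGG, TTTCGCGC, TTTCGCGG, TTTGCCGC, TTTGCCGG, TTTGGCGC and TTTGGCGG, forms of the sequence that E2F binds. Of all 32851 windows 4.51% held a match, and of genes with a window 5.14% did, against 14 of the 29 replication genes known as E2F targets. Among the E2F and DP genes, 4 of 8 had a match. E2f2 had 2, with first bases at 25 and 40 after the start, and E2f3 had 2, at -11 and 4, where 0.289% of windows held 2 or more. E2f7 had 1 at -198 and Tfdp1 had 1 at -43 in the window shown. The windows of E2f1, E2f6, E2f8 and Tfdp2 held none. Those of E2f1 and E2f8 belong to starts 466 and 477 bases inside the gene, and those of Tfdp2 to starts 62459 and 63002 bases inside it, so the first start of these genes was not searched. A match is a run of letters and not a measured binding site. E2f8 had the highest log2 fold changes against WT on the probe sets that stood for the genes. Its window and those of the genes with a match are printed 5′ to 3′ on the strand of the gene, with matches in capitals.
E2f2, chr4:136172024-136172323, + strand: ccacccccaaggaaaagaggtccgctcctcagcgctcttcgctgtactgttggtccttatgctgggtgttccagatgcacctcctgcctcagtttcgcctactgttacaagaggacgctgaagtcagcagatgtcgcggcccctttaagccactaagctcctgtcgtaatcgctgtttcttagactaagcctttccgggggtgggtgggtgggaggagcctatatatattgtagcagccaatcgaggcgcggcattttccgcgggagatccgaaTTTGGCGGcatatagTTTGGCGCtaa
E2f3, chr13:29986014-29986313, - strand: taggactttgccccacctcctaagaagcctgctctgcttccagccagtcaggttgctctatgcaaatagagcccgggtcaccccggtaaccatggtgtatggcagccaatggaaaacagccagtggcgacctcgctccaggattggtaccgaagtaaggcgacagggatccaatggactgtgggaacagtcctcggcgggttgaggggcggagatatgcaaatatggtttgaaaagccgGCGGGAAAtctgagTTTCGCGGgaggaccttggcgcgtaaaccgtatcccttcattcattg
E2f7, chr10:110745189-110745488, + strand: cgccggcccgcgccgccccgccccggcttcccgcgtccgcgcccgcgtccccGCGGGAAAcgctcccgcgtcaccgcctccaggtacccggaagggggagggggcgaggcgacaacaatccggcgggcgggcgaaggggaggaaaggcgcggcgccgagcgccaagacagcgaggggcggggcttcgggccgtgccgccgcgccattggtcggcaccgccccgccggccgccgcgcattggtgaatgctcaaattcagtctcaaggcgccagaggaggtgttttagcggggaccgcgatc
Tfdp1, chr8:13338501-13338800, + strand: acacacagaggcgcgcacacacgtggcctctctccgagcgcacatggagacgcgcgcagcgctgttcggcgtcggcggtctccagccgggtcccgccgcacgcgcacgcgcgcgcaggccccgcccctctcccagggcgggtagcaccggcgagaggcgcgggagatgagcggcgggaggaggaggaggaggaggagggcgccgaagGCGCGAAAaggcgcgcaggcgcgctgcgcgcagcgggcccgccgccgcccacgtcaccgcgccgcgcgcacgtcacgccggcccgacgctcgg
E2f8, chr7:48881547-48881846, - strand: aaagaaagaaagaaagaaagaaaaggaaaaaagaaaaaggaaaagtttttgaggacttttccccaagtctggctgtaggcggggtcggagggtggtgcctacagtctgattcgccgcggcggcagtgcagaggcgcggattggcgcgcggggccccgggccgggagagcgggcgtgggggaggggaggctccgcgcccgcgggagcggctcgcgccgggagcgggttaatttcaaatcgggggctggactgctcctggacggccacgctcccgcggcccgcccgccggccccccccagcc

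Against WT MEFs, 5 of the 10 genes were called higher in TKO MEFs and 0 lower, beside 10.5% of all probe sets called higher, 9.01% lower and 19.5% in either direction. In Rb1KO MEFs 7 were higher and 0 lower, beside 12.5% higher, 10.1% lower and 22.6% in either direction. In TKO-Ras MEFs 6 were higher and 1 lower, beside 15.5%, 12.4% and 27.9%. Changes of 2-fold or more were called for 2 of the 10 genes in TKO, 2 in Rb1KO and 3 in TKO-Ras MEFs, beside 6.96%, 8.06% and 9.93% of probe sets. The median log2 fold change of the 10 genes was 0.39, 0.65 and 0.58 in these comparisons, beside 0.05, 0.08 and 0.11 over all genes. The same WT arrays enter all 3 comparisons, which are therefore not independent. The shares are over all probe sets, of which 38.4% were at or below background on every array, unlike the 10 genes. Of the 18193 genes, each on its brightest probe set, 4274, 5076 and 6126 were called in TKO, Rb1KO and TKO-Ras over WT. In TKO over Rb1KO 1738 of them were called, and in TKO-Ras over TKO 1339.

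Among the activators, E2f1 (1431875_a_at), whose protein drives S phase genes, read 8.59, 8.32 and 8.14 on the TKO-Ras arrays, 8.01, 8.15 and 8.18 on the TKO arrays, 8.41, 8.03 and 8.41 on the Rb1KO arrays, and 7.65, 7.52 and 7.65 on the WT arrays. Every array of the 3 mutant groups was above every WT array, and the mutant groups overlapped each other. E2f1 rose in TKO MEFs by 0.50 on the log2 scale, 1.42-fold (standard error 0.14, limma adjusted p = 0.024), in Rb1KO MEFs by 0.67 (adjusted p = 0.0041) and in TKO-Ras MEFs by 0.74 (adjusted p = 0.0019). The call in TKO MEFs was lost without TKO replicate 2, TKO replicate 3, WT replicate 1 or WT replicate 2 (log2 fold changes 0.48, 0.47, 0.52 and 0.46, adjusted p from 0.051 to 0.075). A second probe set (1417878_at) was called higher in each comparison with WT too, as was a dim one (1447840_x_at) that was at background on every TKO, Rb1KO and WT array and on 2 of 3 TKO-Ras arrays.

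E2f2 (1436434_at), an activator of the same kind, read 7.76, 7.93 and 7.70 on the TKO-Ras arrays, 6.84, 6.96 and 7.30 on the TKO arrays, 6.87, 6.80 and 6.64 on the Rb1KO arrays, and 5.98, 6.04 and 6.25 on the WT arrays. The TKO-Ras arrays lay above all others and the WT arrays below all others, while TKO and Rb1KO overlapped. E2f2 rose in TKO-Ras MEFs by 1.70 over WT, 3.26-fold (standard error 0.13, limma adjusted p = 4.7e-06), in TKO MEFs by 0.94 (adjusted p = 5e-04) and in Rb1KO MEFs by 0.68 (adjusted p = 0.0034). Its dimmer probe set (1455790_at) averaged 6.57 ± 0.04 in TKO-Ras, 5.54 ± 0.32 in TKO, 5.14 ± 0.38 in Rb1KO and, at background on every array, 3.32 ± 0.32 in WT MEFs (SD, n = 3 each). On it the log2 fold change in TKO over the measured WT values was 2.21 (limma adjusted p = 4.2e-05). Against the background level set in place of WT, E2f2 in TKO MEFs was at least 1.32-fold higher, a bound that was not itself tested.

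E2f3 (1434564_at), the third activator, read 8.72, 8.15 and 8.87 on the TKO-Ras arrays, 8.79, 8.75 and 8.81 on the TKO arrays, 8.80, 8.85 and 8.65 on the Rb1KO arrays, and 8.89, 8.74 and 8.81 on the WT arrays. The 4 groups overlapped, and no comparison passed. Its log2 fold change in TKO over WT was -0.03 (95% interval -0.37 to 0.31, limma adjusted p = 0.93), so a change as large as that of E2f2 lies outside the interval. Its dimmer probe set (1427462_at) passed once, in TKO-Ras over WT (0.42, adjusted p = 0.034).

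**Figure D1:**
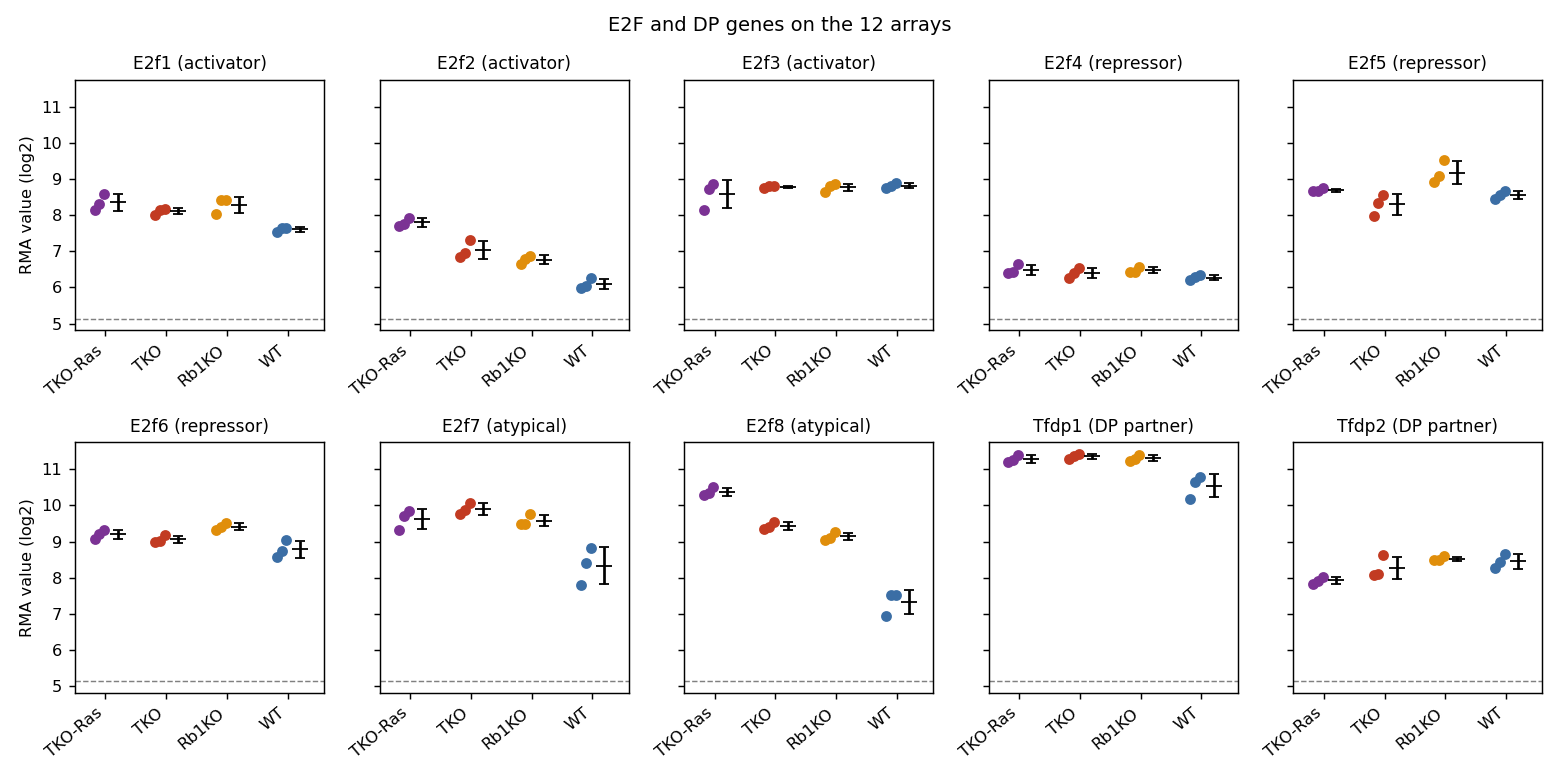
RMA values (log2) of the 10 E2F and DP genes, where points are arrays, the symbols next to them give the mean and SD (n = 3) and background (5.13) is dashed. E2f8 averages 10.38 in TKO-Ras, 9.43 in TKO, 9.14 in Rb1KO and 7.33 in WT MEFs, while the groups of E2f3 overlap.

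Among the repressors, E2f4 (1451480_at), which binds mainly p107 and p130, had group means of 6.49 ± 0.13 in TKO-Ras, 6.39 ± 0.13 in TKO, 6.47 ± 0.08 in Rb1KO and 6.27 ± 0.07 in WT MEFs (SD, n = 3 each). None of its comparisons passed, with a log2 fold change of 0.12 in TKO over WT (95% interval -0.11 to 0.35, limma adjusted p = 0.49). It has 1 probe set.

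E2f5 (1417444_at), which pairs with p130, read 8.65, 8.66 and 8.73 on the TKO-Ras arrays, 8.56, 8.33 and 7.99 on the TKO arrays, 8.91, 9.54 and 9.07 on the Rb1KO arrays, and 8.67, 8.57 and 8.44 on the WT arrays. The Rb1KO arrays lay above all the others, and TKO overlapped WT. In TKO over Rb1KO, the direct test of the knockouts, E2f5 was the only one of the 10 genes called, with a log2 fold change of -0.88, 1.84-fold lower (standard error 0.17, limma adjusted p = 0.0093), beside 4.19% of probe sets called higher, 2.99% lower and 7.17% in either direction. None of the 10 changed by 2-fold or more in that comparison, beside 3.14% of probe sets. The E2f5 call held in each of the 15 alternative settings tried, from -1.01 to -0.69. Against WT, E2f5 rose in Rb1KO MEFs by 0.61 (adjusted p = 0.024), a call lost in 6 of 15 settings, among them the fits without Rb1KO replicate 2 (0.43, adjusted p = 0.09), without WT replicate 2 (0.62, adjusted p = 0.055) and without WT replicate 3 (0.55, adjusted p = 0.058). In TKO over WT it was -0.26 (95% interval -0.64 to 0.11, adjusted p = 0.34). A second probe set (1460207_s_at) was called in the same 2 comparisons, with -0.86 in TKO over Rb1KO (adjusted p = 0.0034) and 0.66 in Rb1KO over WT (adjusted p = 0.0061). The dimmest one (1447625_at) was called in none.

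E2f6, the pocket-independent repressor, gave different pictures on its 2 probe sets. On the brighter one (1448835_at) it read 9.21, 9.08 and 9.33 on the TKO-Ras arrays, 9.17, 9.03 and 8.98 on the TKO arrays, 9.41, 9.52 and 9.31 on the Rb1KO arrays, and 8.73, 9.05 and 8.58 on the WT arrays. There it rose in Rb1KO MEFs by 0.63 over WT (limma adjusted p = 0.0042) and in TKO-Ras MEFs by 0.42 (adjusted p = 0.03). The TKO-Ras call was lost without TKO-Ras replicate 1 or 3 or WT replicate 1 or 3 (0.32 to 0.42, adjusted p from 0.069 to 0.1), and with cyclic loess or a fit of those groups alone (adjusted p = 0.074 and 0.097). In TKO MEFs it did not pass (0.27, adjusted p = 0.17), but without WT replicate 2 it did (0.41, adjusted p = 0.042). On the dimmer one (1437914_at) E2f6 read 8.04, 7.40 and 8.24 on the TKO-Ras arrays, 8.29, 8.33 and 8.14 on the TKO arrays, 6.72, 6.66 and 7.02 on the Rb1KO arrays, and 6.37, 6.72 and 6.37 on the WT arrays. On this probe set the TKO-Ras and TKO arrays lay above every Rb1KO and WT array. The log2 fold change was 1.77 in TKO over WT, 3.40-fold (standard error 0.20, limma adjusted p = 9.7e-05), 1.40 in TKO-Ras over WT (adjusted p = 3.1e-04), 1.46 in TKO over Rb1KO (adjusted p = 8.8e-04) and 0.31 in Rb1KO over WT (adjusted p = 0.31). With each array left out in turn the call in TKO over Rb1KO held (1.39 to 1.57, highest adjusted p = 0.0062). The brighter probe set was at -0.36 in that comparison (limma adjusted p = 0.14). The gap between the 2 probe sets on the same array, dimmer minus brighter, lay between -0.88 and -0.69 in TKO MEFs and between -2.86 and -2.30 in Rb1KO MEFs. These do not overlap, with a 2-sided exact permutation p = 0.1, the smallest that 3 arrays against 3 allow. Which transcripts the 2 probe sets read is not given in the annotation used, and the dimmer one was singled out after its values were seen.

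**Figure D2:**
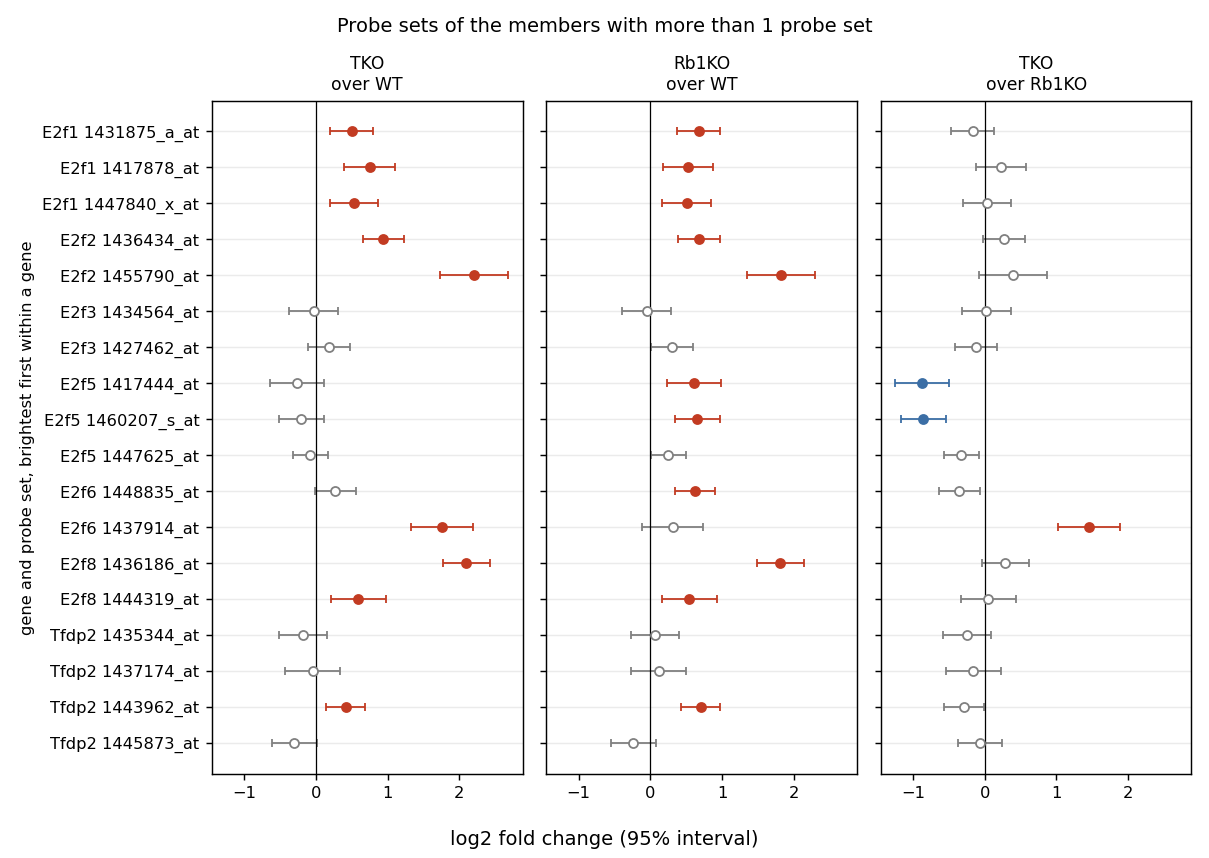
Log2 fold change with its 95% interval for each probe set of the members that have more than 1, in TKO over WT, Rb1KO over WT and TKO over Rb1KO, with filled points for adjusted p under 0.05 (red higher, blue lower). E2f6 is split, at -0.36 on 1448835_at and 1.46 on 1437914_at in TKO over Rb1KO.

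On the probe sets that stood for the genes, the atypical E2Fs had the highest log2 fold changes of the 10 in TKO over WT and Rb1KO over WT. This ranking depends on the probe set. On its dimmer one, at background in WT MEFs, E2f2 was at 2.21 in TKO and 1.82 in Rb1KO over WT. E2f6 was at 1.77 in TKO over WT on its dimmer one. E2f8 (1436186_at) read 10.35, 10.50 and 10.29 on the TKO-Ras arrays, 9.40, 9.35 and 9.54 on the TKO arrays, 9.26, 9.05 and 9.11 on the Rb1KO arrays, and 7.51, 7.53 and 6.94 on the WT arrays. No 2 groups overlapped. It rose over WT in TKO-Ras MEFs by 3.05 on the log2 scale, 8.29-fold (standard error 0.15, limma adjusted p = 1.8e-07), in TKO MEFs by 2.10, 4.30-fold (adjusted p = 5.1e-06), and in Rb1KO MEFs by 1.81, 3.52-fold (adjusted p = 1.2e-05). TKO and Rb1KO MEFs differed by 0.29, which did not pass (95% interval -0.04 to 0.62, adjusted p = 0.33). Its dim probe set (1444319_at), below background on every array, was called higher in the same 3 comparisons with WT.

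E2f7 (1437187_at) read 9.70, 9.33 and 9.85 on the TKO-Ras arrays, 9.77, 9.86 and 10.07 on the TKO arrays, 9.49, 9.75 and 9.48 on the Rb1KO arrays, and 8.83, 8.40 and 7.79 on the WT arrays. All mutant arrays lay above the WT arrays. E2f7 rose over WT in TKO MEFs by 1.56, 2.96-fold (standard error 0.23, limma adjusted p = 6.2e-04), in Rb1KO MEFs by 1.24 (adjusted p = 0.0022) and in TKO-Ras MEFs by 1.29 (adjusted p = 0.0014). Both atypical genes were lowest on WT replicate 3. Without it the log2 fold changes in TKO over WT were 1.29 for E2f7 and 1.91 for E2f8, and both stayed called.

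Of the DP partners, Tfdp1 (1423241_a_at) read 11.26, 11.19 and 11.39 on the TKO-Ras arrays, 11.38, 11.41 and 11.27 on the TKO arrays, 11.24, 11.40 and 11.27 on the Rb1KO arrays, and 10.79, 10.66 and 10.18 on the WT arrays. The mutant groups overlapped each other and lay above WT. Tfdp1 rose in TKO MEFs by 0.81, 1.76-fold (standard error 0.14, limma adjusted p = 0.002), in Rb1KO MEFs by 0.76 (adjusted p = 0.0025) and in TKO-Ras MEFs by 0.74 (adjusted p = 0.0025). Without WT replicate 3, again the lowest, the first was 0.63 (adjusted p = 0.0016).

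Tfdp2 (1435344_at) read 8.02, 7.92 and 7.83 on the TKO-Ras arrays, 8.09, 8.09 and 8.63 on the TKO arrays, 8.59, 8.50 and 8.48 on the Rb1KO arrays, and 8.44, 8.67 and 8.26 on the WT arrays. The TKO-Ras arrays were the lowest, and the other groups overlapped. It fell only in TKO-Ras over WT, with a log2 fold change of -0.53 (limma adjusted p = 0.023), and this call was lost without TKO-Ras replicate 2 or 3 or WT replicate 1 or 2 (-0.54 to -0.43, adjusted p from 0.055 to 0.083) and with the mean of its 4 probe sets (-0.06, adjusted p = 0.63). Another of its probe sets (1443962_at) went the other way, higher over WT in TKO-Ras, TKO and Rb1KO MEFs by 0.56, 0.41 and 0.70 (adjusted p = 0.0059, 0.038 and 0.0018). Its direction therefore depends on the probe set.

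**Figure D3:**
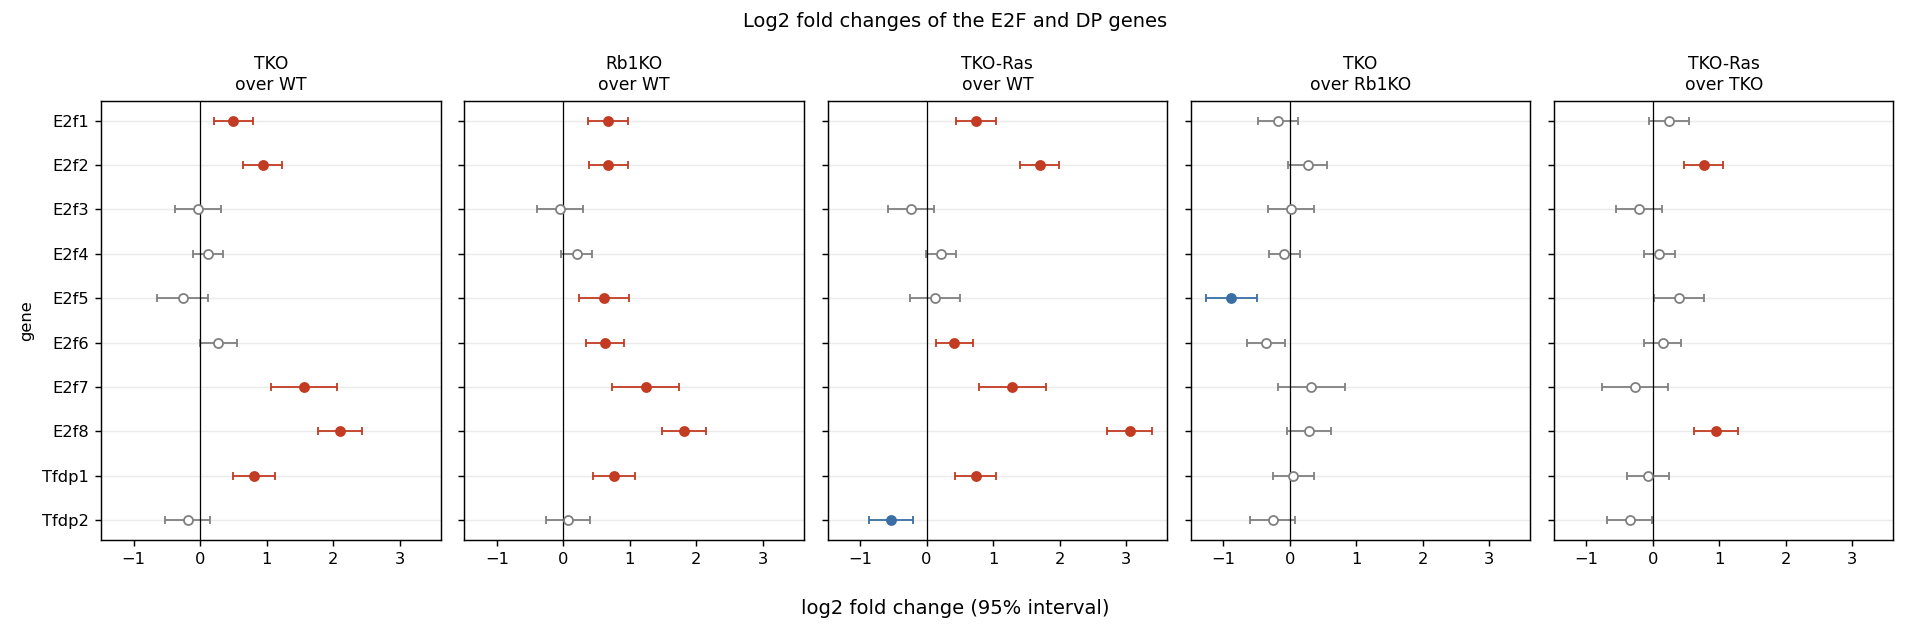
Log2 fold change with its 95% interval for the 10 E2F and DP genes in 5 comparisons, with filled points for adjusted p under 0.05 (red higher, blue lower) and open points where the test did not pass. E2f8 lies at 2.10, 1.81 and 3.05 over WT, E2f5 is the only gene called in TKO over Rb1KO, at -0.88, and E2f2 and E2f8 are the genes called in TKO-Ras over TKO, at 0.76 and 0.95.

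When TKO-Ras MEFs were set against TKO MEFs, 2 of the 10 genes were called, both higher and by less than 2-fold, beside 2.54% of probe sets called higher, 3.13% lower, 5.67% in either direction and 2.47% by 2-fold or more. E2f8 rose by 0.95, 1.93-fold (standard error 0.15, limma adjusted p = 0.004), and E2f2 by 0.76, 1.69-fold (standard error 0.13, adjusted p = 0.0065). The TKO-Ras arrays of both genes lay above every TKO array, and both calls held in all 15 alternative settings, with E2f8 at its lowest, 0.54 (adjusted p = 0.016), as the mean of its 2 probe sets. The dimmer probe set of E2f2 was also called (1.03, adjusted p = 0.018), while that of E2f8, below background, was not (0.14, adjusted p = 0.74). The other activators and the other atypical gene did not pass. E2f1 was at 0.24 (95% interval -0.06 to 0.54), E2f3 at -0.21 (-0.55 to 0.14) and E2f7 at -0.27 (-0.77 to 0.23). Whether the change of E2f8 differed from that of E2f7 was not tested.

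Genes that E2Fs are known to drive were read beside them. Of 34 measured genes of DNA replication, all 34 rose in TKO MEFs over WT, with a median log2 fold change of 1.71 beside 0.05 over all genes. All 34 also rose in Rb1KO (median 1.62) and in TKO-Ras MEFs (median 1.72). Of all probe sets, 10.5%, 12.5% and 15.5% were called higher over WT in TKO, Rb1KO and TKO-Ras MEFs. Cdc6, which loads the replicative helicase, averaged 9.90 in TKO and 7.05 in WT MEFs (2.85, limma adjusted p = 7e-06). Pole2, a subunit of DNA polymerase epsilon, was higher by 2.45 and Gins1, part of the helicase complex, by 2.41. Of 17 genes of G1/S control, 15 rose in TKO MEFs and 2 did not pass, with a median of 1.32. The largest rises were those of Uhrf1 (2.17), which directs maintenance DNA methylation, Brca1 (1.93), a DNA repair gene, and Hells (1.92), a chromatin remodeler. The 2 that did not pass were Ccne1 (0.26, limma adjusted p = 0.57) and Cdc25a (0.22, adjusted p = 0.41). In Rb1KO MEFs 15 of the 17 rose (median 1.44) and in TKO-Ras MEFs 14 (median 1.46), beside the shares of probe sets given above. Without WT replicate 3, all 34 replication genes stayed called in the 3 comparisons, with medians from 1.49 to 1.53. In that fit 21%, 23.9% and 27.6% of probe sets were called in either direction in TKO, Rb1KO and TKO-Ras over WT. In TKO over Rb1KO, 1 of the 34 (Dut, 0.84) and 1 of the 17 (Cdkn2c, 0.88) were called, both higher, beside 4.19% of probe sets called higher and 7.17% in either direction, and these genes were named after their values were seen. Of the 9 pocket protein and MuvB genes, which sit on E2F targets, 4 were higher and 3 lower in TKO over WT, beside 10.5% and 9.01% of probe sets. The lower ones were Rb1, Rbl1 and Rbl2, and Mybl2, a MuvB partner, was higher by 1.77 (adjusted p = 6.3e-04).

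In TKO-Ras over TKO MEFs, where E2f2 and E2f8 rose, none of the 34 replication genes was called higher and 1 was called lower. Of all probe sets, 2.54% were called higher there and 3.13% lower. The lower gene was the thymidylate synthase gene Tyms (-0.87, limma adjusted p = 0.03). Its probe set was dim, at a mean of 5.28 in TKO-Ras and 6.15 in TKO MEFs. The 34 genes had a median of -0.08 there, beside 0.04 over all genes. None of the 17 genes of G1/S control was called in either direction (median -0.06), beside 5.67% of probe sets. A count of 0 of 17 is a count of calls and does not show equal levels.

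Of 8 measured apoptosis genes known as E2F targets, 1 was called in TKO over WT, the inhibitor gene Cdkn2a, lower at -6.62 (limma adjusted p = 1.4e-05), and 7 did not pass, beside 9.01% of probe sets called lower and 19.5% in either direction. In Rb1KO MEFs 2 were lower and in TKO-Ras MEFs 3, with none higher, beside 10.1% and 12.4% of probe sets called lower. Without WT replicate 3 there were 2 lower in TKO, 2 lower in Rb1KO, and 3 lower and 1 higher in TKO-Ras MEFs. Of all probe sets, 21%, 23.9% and 27.6% were then called in either direction. Apaf1, the core of the apoptosome and named after its values were seen, was at -0.17 in TKO (adjusted p = 0.55) and fell in Rb1KO MEFs (-0.82, adjusted p = 0.0045). Of 10 measured partners of E2F6 in the Polycomb complex PRC1.6, 2 rose in TKO over WT, L3mbtl2 (0.88, adjusted p = 0.0063) and Cbx3 (0.75, adjusted p = 0.0013), and 3 rose in Rb1KO over WT. Beside these, 10.5% and 12.5% of probe sets were called higher, and 19.5% and 22.6% in either direction. In TKO-Ras over WT 2 were higher and 1 lower, beside 27.9% of probe sets called. Without WT replicate 3 the counts were 2 higher in TKO, 1 higher in Rb1KO and 2 higher in TKO-Ras MEFs, again beside 21%, 23.9% and 27.6% called in either direction. The 5 measured germline genes that E2F6 is known to repress in mouse, such as Smc1b of the meiotic cohesin, had group means at or below background in TKO-Ras, TKO, Rb1KO and WT MEFs. By limma none of them passed in any comparison.

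**Figure D4:**
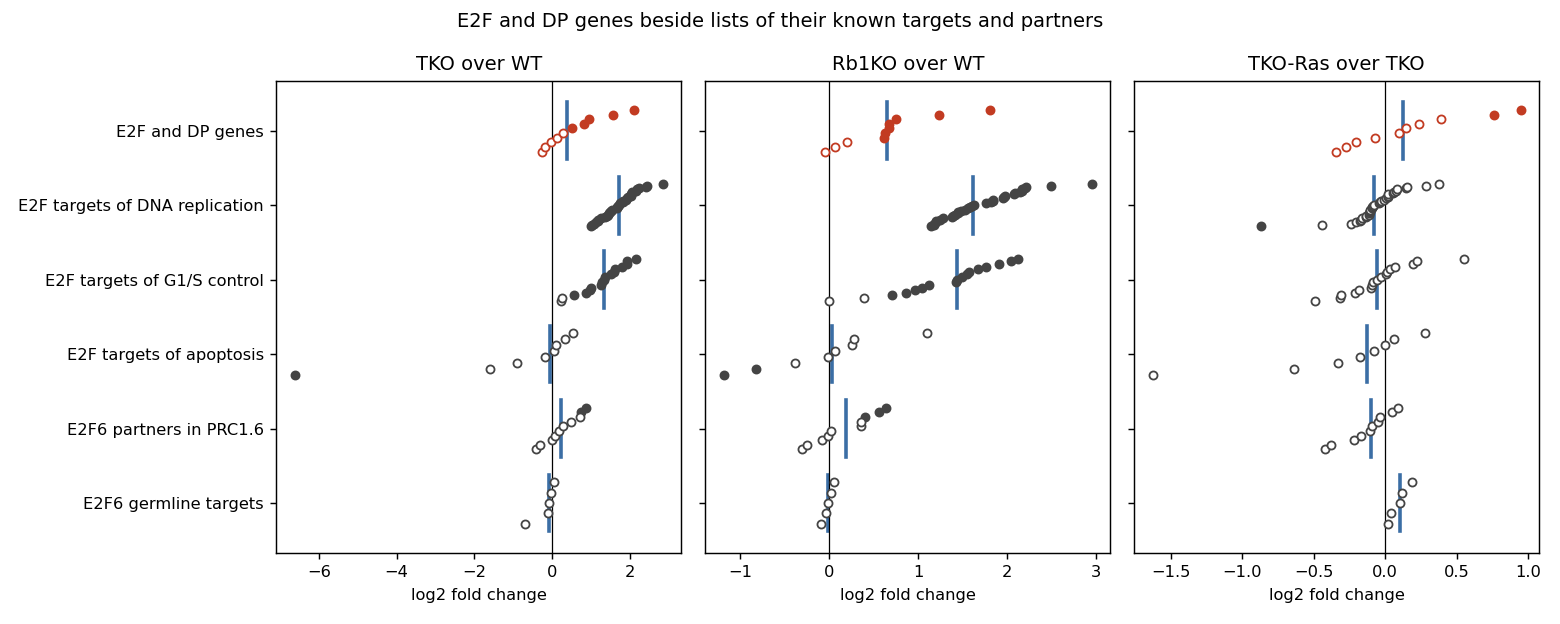
Log2 fold change of each gene of the E2F and DP set (red) and of 5 lists of known targets and partners (grey), with filled points for adjusted p under 0.05 and a blue line at the median, and with different horizontal scales in the 3 panels. The 34 replication genes have a median of 1.71 in TKO over WT, where Cdc6 is the highest at 2.85, and a median of -0.08 in TKO-Ras over TKO, where E2f2 and E2f8 are at 0.76 and 0.95.

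The profiles over the 12 arrays of E2f2, E2f7 and E2f8, the members whose group means spanned 1 log2 unit or more, were set against those of 12740 other genes with a group mean above background, each centred on its own mean. The measure was the root mean square difference in log2 units, and no test was made. The nearest to E2f2 were Gphn (0.179), Slc27a1 (0.192) and Ermp1 (0.196), beside a median of 0.647 over all genes compared. The nearest to E2f7 were Riox1 (0.158), Nfatc2ip (0.189) and Cdca2 (0.191), beside 0.684. The nearest to E2f8 were Aunip (0.225), Gpc1 (0.271) and Rad54b (0.273), beside 1.11. Cdca2 encodes a mitotic chromosome protein and Rad54b a factor of recombination repair. Both had rank 3, and a shared function of the nearest genes was not tested. Aunip averaged 9.70 in TKO-Ras, 9.20 in TKO, 8.51 in Rb1KO and 6.67 in WT MEFs, the same order as E2f8. The means of Rad54b had this order too, but at 7.56 in TKO and 7.54 in Rb1KO MEFs its arrays overlapped. Gpc1 did not have it, with 10.56 in TKO-Ras, 9.68 in TKO, 9.79 in Rb1KO and 7.62 in WT MEFs. These genes were picked by their nearness on the same arrays, so a like order is not a separate result.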

How the data were processed

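RNA of 12 MEF samples, 3 per genotype and 100 ng each, was hybridised to Affymetrix MOE430 2.0 arrays. The authors made the values in Partek Genomics Suite 6.5 with RMA, as the methods and their processing notes state, and deposited 1 value per probe set and array. The scale of the deposited values is not named, and their range of 2.18 to 14.92 is that of log2 values. They hold no detection calls. Of 45101 probe sets, 64 controls were left out. Symbols came from the platform annotation (34945 probe sets with 1 symbol, 932 with several and 9160 with none).

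Tests were limma fits (version 3.58.1, R 4.3.3, lmFit and eBayes over all 12 arrays, 8 residual degrees of freedom, 2-sided, Benjamini-Hochberg over 45037 probe sets). The script was tested on simulated data. Figures used matplotlib 3.10.9. Named are the 10 members, up to 3 called genes of each list with the largest change in TKO over WT, and the 3 nearest profiles. The members and lists were chosen with earlier results of these data known. Alternatives were an intensity trend, contrasts without moderation as in the methods, a block for the replicate number, fits of the compared groups alone, median centring, cyclic loess, a filter on background, other probe sets and each array left out. The number of arrays limits the precision.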

Additional observations from a re-analysis of the deposited data

How the results depend on the processing

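The calls of E2f2, E2f7, E2f8 and Tfdp1 against WT MEFs held under every alternative run for them, but sizes moved. As the mean of its probe sets, E2f8 was at 1.35 in TKO, 1.18 in Rb1KO and 1.89 in TKO-Ras over WT, against 2.10, 1.81 and 3.05, and E2f2 was at 1.58, 1.25 and 2.47, against 0.94, 0.68 and 1.70. Over all members and comparisons, 706 of the alternative values kept their direction and side of the threshold, 21 lost the call, 2 gained it and 16 changed sign. The number of E2F and DP genes called changed by over 1.5 times once: with the mean over the probe sets of each gene it was 2 in TKO over Rb1KO, against 1, since E2f6 became called there (0.55, limma adjusted p = 0.033, against -0.36). With 1 array left out the counts ran from 4 to 5 in TKO over WT, 6 to 7 in Rb1KO over WT, 5 to 6 in TKO-Ras over WT, 1 in TKO over Rb1KO and 2 in TKO-Ras over TKO. With the replicate number as a block they were 5, 7, 7, 1 and 2, as without it. Same-numbered arrays of different groups had deviations correlated at -0.21 to 0.31 (mean 0.048). Differently numbered ones were at -0.38 to 0.32 (mean -0.025). These ranges overlap, but with 3 arrays per group they cannot exclude a pairing. The main fit has no block.

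The other changes of sign were of values that did not pass. With the mean of its probe sets E2f3 was 0.075 in TKO over WT, 0.13 in Rb1KO over WT, -0.053 in TKO over Rb1KO, 0.018 in TKO-Ras over TKO and 0.094 in TKO-Ras over WT. With median centring it was 0.025 in TKO over WT. With 1 array left out it ran from -0.067 to 0.0095 in TKO over WT, from -0.093 to 0.0099 in Rb1KO over WT, from -0.039 to 0.064 in TKO over Rb1KO and from -0.35 to 0.0083 in TKO-Ras over TKO. Tfdp2 in Rb1KO over WT was -0.016 with cyclic loess and ran from -0.031 to 0.18 with 1 array left out. E2f1 in TKO over Rb1KO was 0.027 with the mean of its probe sets and 0.23 on the probe set without a suffix, and E2f6 in TKO-Ras over TKO was -0.11 with the mean of its probe sets. With cyclic loess, 43.3% of the probe sets called in Rb1KO over WT were higher, against 55.4% without it, and 43.7% against 55.7% in TKO-Ras over WT. In TKO over WT the share was 45.6% with cyclic loess and 61.5% with median centring, against 53.8%. The cause was not tested. Tfdp1 has no probe set without a suffix. The check of the target lists without WT replicate 3 and that of the dimmer E2f6 probe set were chosen after seeing the data.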
